A study of Mus musculus with 22 samples.

Results

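The genes described here are named for subunits of the proteasome, most of them constitutive. They were taken as all genes whose single array symbol begins with Psma, Psmb, Psmc or Psmd followed by a digit, without Psmb8, Psmb9 and Psmb10, the subunits that interferon induces. This gave 37 of the 15965 genes with a probe set of their own symbol. They were read by 63 probe sets, and each gene was represented by its brightest one (mean log2 signal over arrays), which lay on chip A for 32 genes, on chip B for 2 and on chip C for 3. The rule used names and mean level, and no difference between groups. It takes in 33 subunits of the assembled particle and 4 genes that encode none: Psmd5, Psmd9 and Psmd10, chaperones that help to build the 19S particle, and Psmc3ip, a meiotic recombination protein that carries the symbol only through its binding partner. Among the 33 are Psma8 and Psmb11, variant core subunits known from the testis and the thymus.

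The proteasome degrades proteins tagged with ubiquitin. Its barrel, the 20S core, stacks rings of alpha subunits (Psma genes), which gate the entrance, around rings of beta subunits (Psmb genes), of which Psmb5, Psmb6 and Psmb7 cut the substrate. The 19S particle caps the barrel: ATPases (Psmc genes) unfold the substrate, and non-ATPase subunits (Psmd genes) bind ubiquitin chains, remove them and hold the particle together. Every cell needs the complex, and its genes are known to rise together through the transcription factor NRF1, encoded by Nfe2l1, when degradation falls short.

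RNA was compared between 3 groups of mouse mammary tissue on Affymetrix MG-U74v2 arrays, a set of 3 chip types (A, B and C). Normal glands of FVB mice gave 3 RNA samples. Tumours induced by the transgene Her2/Neu, an ErbB2 receptor, gave 3 RNA samples from mice wild type for PEA3 and 2 from PEA3-null mice; the Etv4 gene encodes PEA3, an ETS family transcription factor. Chips A and B read all 8 samples, and chip C read 3 normal, 2 wild-type and 1 PEA3-null sample, so members read on chip C have no test against PEA3-null tumours. Tumour RNA is labelled a pool, and so are the normal samples in their titles. The labels state neither the promoter of the transgene, the nature of the PEA3 deletion, the age of the mice nor the strain of the tumour mice. All groups carry the same statement of sorting for the surface marker Sca-1. All arrays of a group share 1 submitters' sample identifier, so p-values measure the spread between these preparations, which may be technical.

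Several facts of the whole series bear on the values below. Signal for Etv4 was not low on the arrays labelled PEA3-null: 1 of its probe sets read 513 and 276 there against 420, 360 and 361 in the wild-type tumours (limma adjusted p = 0.998), and the second read 470 and 734 against 929.8, 367 and 954 (limma adjusted p = 0.875). Without probe positions these values do not test the deletion, and genotypes are named by their labels. Muscle markers (7 genes on chips A and B) summed to 194340 to 199570 scaled signal units in normal glands, 767 to 1193 in wild-type and 1084 to 3832 in PEA3-null tumours. Adipocyte markers (6 genes) summed to 69645 to 79187, 1518 to 2081 and 2317 to 3013. The sum of luminal epithelial markers (6 genes) ran the other way, at 6440 to 7885, 27984 to 34140 and 30390 to 34032. So did that of proliferation markers (6 genes), at 1744 to 2486, 6636 to 7652 and 4464 to 7612. Single genes of these lists varied. Of 9 luminal genes tested on all chips, 7 were higher and 1 lower past the threshold in wild-type tumours. In PEA3-null tumours 4 of 6 were higher and 1 lower. Of the 6 proliferation genes 3 were higher and 0 lower in each tumour group. Lists for fibroblasts, endothelium and leukocytes were also lower in both tumour groups, and Ly6a, the gene of Sca-1, had no probe set of its own. The Gapdh 3′ to 5′ signal ratio, which rises as RNA breaks, was 2.58 to 6.08 on the 9 normal arrays and 0.91 to 1.25 on the 13 tumour arrays, while the actin ratio overlapped, at 1.28 to 2.14 and 1.14 to 1.66. No tumour array was scanned on the day of a normal array of its chip type, so the scan and the tissue cannot be told apart, and the chip A wash of normal glands 1 and 2 was aborted. In these bulk samples, fewer cells of a type and less RNA per cell cannot be told apart either, and the part of cell mixture and RNA quality in the differences below was not tested.

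The promoters of 6 genes are shown first: those with the 4 largest rises and the 2 largest falls past the threshold between normal gland and wild-type tumour, chosen after their values were seen. They are shown because the values below are ordered by 20S and 19S genes and these letters are counted for both. RefSeq (GRCm38.p6) promoter windows, 250 bases before to 50 after the start, matched 30 of the 37 genes, with 32 windows. Windows of Psma8, Psmb1, Psmb2, Psmb7, Psmc3, Psmd3 and Psmd7 were not used here. The 4 genes Psmd13 at chr7:140882144-140882443 (plus strand), Psmd5 at chr2:34870913-34871212 (minus strand), Psma7 at chr2:180042415-180042714 (minus strand) and Psmb6 at chr11:70525107-70525406 (plus strand) were higher in the tumours. Psmd1 at chr1:86064369-86064668 (plus strand) and Psmd11 at chr11:80428365-80428664 (plus strand) were lower. Capitals mark, on either strand, TGANNNNGC (a loose core of the antioxidant response element, to which NRF1 and NRF2 bind), CCAAT (the box of NF-Y) and CCGGAAG (a core of ETS factor sites with its flank).
Psmd13: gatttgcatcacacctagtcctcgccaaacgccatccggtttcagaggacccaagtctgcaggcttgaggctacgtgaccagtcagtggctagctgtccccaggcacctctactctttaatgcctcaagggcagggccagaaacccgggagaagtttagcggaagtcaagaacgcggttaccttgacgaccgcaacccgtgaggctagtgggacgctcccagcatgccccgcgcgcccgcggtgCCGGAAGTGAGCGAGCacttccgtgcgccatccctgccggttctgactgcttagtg
Psmd5: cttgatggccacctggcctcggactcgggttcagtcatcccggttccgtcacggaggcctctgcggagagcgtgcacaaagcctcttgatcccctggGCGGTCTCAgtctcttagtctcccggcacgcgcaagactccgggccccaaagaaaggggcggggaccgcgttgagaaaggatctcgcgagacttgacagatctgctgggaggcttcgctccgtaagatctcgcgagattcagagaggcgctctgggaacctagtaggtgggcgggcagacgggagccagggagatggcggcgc
Psma7: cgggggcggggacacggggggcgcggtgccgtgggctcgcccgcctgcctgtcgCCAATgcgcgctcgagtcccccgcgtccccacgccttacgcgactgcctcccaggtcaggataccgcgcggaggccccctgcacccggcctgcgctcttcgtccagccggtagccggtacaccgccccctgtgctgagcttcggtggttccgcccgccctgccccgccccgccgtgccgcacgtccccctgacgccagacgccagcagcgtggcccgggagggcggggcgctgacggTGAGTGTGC
Psmb6: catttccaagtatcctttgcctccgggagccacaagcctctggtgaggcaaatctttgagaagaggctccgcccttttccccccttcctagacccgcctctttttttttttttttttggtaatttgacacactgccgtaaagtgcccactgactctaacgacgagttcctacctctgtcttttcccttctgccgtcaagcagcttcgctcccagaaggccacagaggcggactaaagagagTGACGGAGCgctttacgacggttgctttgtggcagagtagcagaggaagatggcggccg
Psmd1: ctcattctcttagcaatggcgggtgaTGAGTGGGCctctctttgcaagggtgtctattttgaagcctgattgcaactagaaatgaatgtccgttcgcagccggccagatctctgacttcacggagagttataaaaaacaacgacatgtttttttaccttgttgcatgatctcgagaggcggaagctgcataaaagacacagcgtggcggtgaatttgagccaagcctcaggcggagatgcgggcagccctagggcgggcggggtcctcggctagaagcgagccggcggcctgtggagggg
Psmd11: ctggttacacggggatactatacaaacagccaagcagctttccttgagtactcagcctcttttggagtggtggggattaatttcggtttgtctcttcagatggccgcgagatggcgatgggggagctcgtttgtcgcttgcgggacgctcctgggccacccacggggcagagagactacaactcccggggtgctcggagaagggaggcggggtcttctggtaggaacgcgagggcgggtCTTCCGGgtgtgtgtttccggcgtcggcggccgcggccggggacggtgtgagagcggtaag

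The ETS letters CCGGAAG stood in 10 of the 15 windows of 19S genes (66.7%), in 1 of the 13 windows of 20S genes (7.69%) and in 8.86% of all 32851 windows of the table. In Psmd13 they began 6 bases before the start and ran into a TGANNNNGC match at base 2, and in Psmd11 they lay on the minus strand from base -11. The loose response element core was in 10 of 13 20S windows (76.9%), 6 of 15 19S windows (40.0%) and 41.3% of all windows. Its stricter form TGACNNNGC, a subset of the loose one, was in 5 of 32 windows of all members (15.6%), against 12.4% of all windows. CCAAT was in 53.8% of 20S, 26.7% of 19S and 37.4% of all windows, and TATAA in 12.5% of member windows against 24.9% of all. These matches describe letters, not binding, and a window without a match says nothing about a factor. Neighbouring windows of 1 gene (Psma6 and Psmc2 have a pair each) are not independent.

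**Figure D1:**
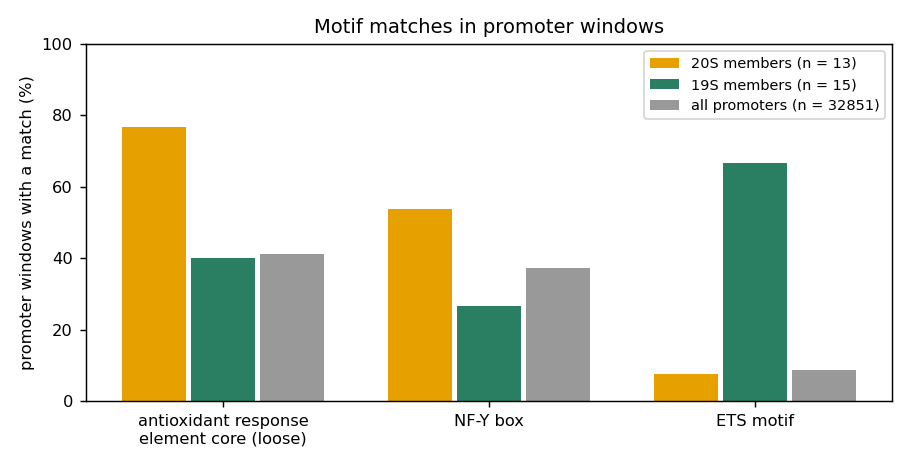
Share of promoter windows (vertical axis, percent) with at least 1 match on either strand to 3 motifs, for 20S genes, 19S genes and all windows of the RefSeq table. The ETS motif was found in 66.7% of 19S windows against 7.69% of 20S windows, and the loose antioxidant response element core in 76.9% of 20S windows.

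The first comparison asks how proteasome transcripts of Her2/Neu tumours differ from those of the normal gland. In wild-type tumours 9 of 16 tested genes of the 20S core were higher and 0 lower, and of 16 tested genes of the 19S particle 3 were higher and 3 lower. Of the 35 members that passed the filter on dim signals (at least 150 scaled units on 2 arrays of the chip type), 13 rose, 3 fell and 19 did not pass the test at an adjusted p of 0.05. Over all 28242 tested probe sets, 20.8% passed (10.5% higher and 10.3% lower). The median log2 difference of the members was 0.44, beside 0.045 for all tested probe sets. The groups did not overlap, with tumours higher, for 16 members (21.9% of all tested probe sets did so) and, with tumours lower, for 6 (20%). Psmc4 is among the 16. Like Psma8 it was read on chip C and passed the filter through tumour arrays alone, and both count in the median. On chips A and B only, the median of 32 tested members was 0.35, beside 0.061 for all tested probe sets. Psmd2 and Psmc3ip did not pass the filter: Psmd2, a large scaffold subunit of the 19S base, stayed at 130.2 or below on all 8 arrays.

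The 7 other core genes did not pass, although all 16 differences were positive, with a median of 0.65. Among the 16 is Psma8, which passed the filter through tumour arrays alone, so the filter favoured its positive sign. The 10 other 19S genes did not pass either, and the 19S median was -0.11. Sample by sample, the median of the 15 core genes of chips A and B lay 0.62, 0.73 and 0.72 above the normal mean in the wild-type tumours and 1.05 and 0.48 above it in the PEA3-null tumours, and between -0.096 and 0.16 in the normal glands. For the 15 genes of the 19S particle the same medians were -0.08, 0.06 and -0.37 in wild-type tumours and 0.20 and -0.07 in PEA3-null tumours. All 5 tumour samples were thus above all 3 normal glands in the 20S median, and the tumours lay on both sides of the normal mean in the 19S median. The difference between the subcomplexes was not tested.

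**Figure D2:**
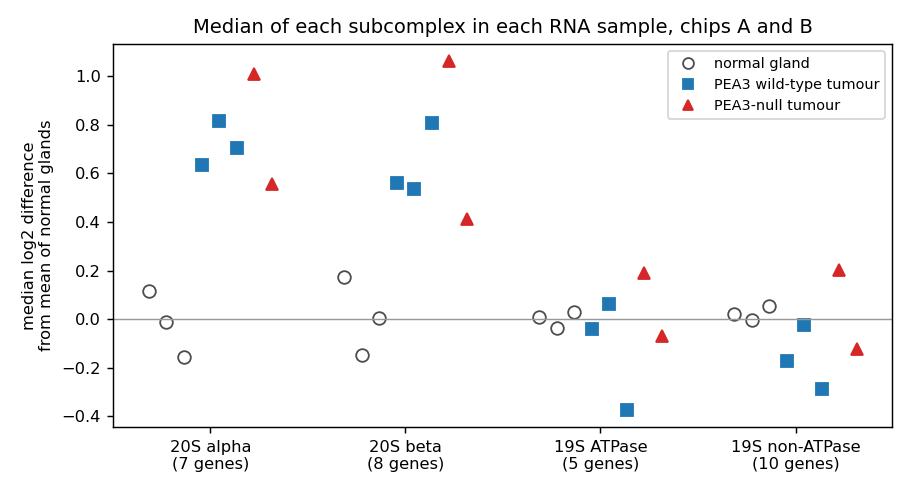
Median log2 difference from the mean of the normal glands (vertical axis) for each RNA sample, over the genes of 4 subcomplexes on chips A and B. Tumour samples of both genotypes stand above the normal glands for the alpha and beta rings and scatter around 0 for both classes of 19S genes.

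Of the 8 alpha ring genes 4 rose and 0 fell, where 10.5% of all tested probe sets rose and 10.3% fell. Psma7 read 2193, 1640.0 and 1436 in the normal glands, 4528, 6000.3 and 6339 in the wild-type tumours and 6560.1 and 3984 in the PEA3-null tumours. Every tumour sample was above every normal gland, and wild-type tumours were 3.18-fold higher (log2 difference 1.67, SE 0.22, limma adjusted p = 0.000172). Psma4 read 1488, 1204 and 1093 in the normal glands, 2519, 4664 and 3579.9 in the wild-type tumours and 4058 and 2136 in the PEA3-null tumours, which also left no overlap, with a 2.74-fold rise (log2 difference 1.45, SE 0.26, limma adjusted p = 0.00174). Psma2 read 2095, 2164 and 1437 in the normal glands, 3057, 3326 and 3635 in the wild-type tumours and 4360.3 and 3287 in the PEA3-null tumours, a smaller rise of 1.77-fold (log2 difference 0.82, SE 0.18, limma adjusted p = 0.00627). Psma5, at 1338, 1264 and 1102 in normal glands and 1929, 2189 and 1725 in wild-type tumours, rose 1.56-fold (limma adjusted p = 0.0197). Psma1, whose groups did not overlap either, missed the threshold with a log2 difference of 0.56 (limma adjusted p = 0.0539). Psma3 and Psma6 differed by 0.17 and 0.23 on the log2 scale, with overlapping groups (limma adjusted p = 0.509 and 0.593). Psma8, a variant alpha subunit known from the testis, was read on chip C and did not pass (limma adjusted p = 0.38). It reached the signal minimum on 2 of 6 arrays, both of tumours.

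Of the 8 beta ring genes 5 rose and 0 fell, where 10.5% of all tested probe sets rose and 10.3% fell. Psmb6, the subunit with caspase-like activity, read 1081, 786 and 1000.5 in the normal glands, 2556, 3034 and 3215 in the wild-type tumours and 3812 and 1928 in the PEA3-null tumours. All tumour values exceeded all normal ones, and the wild-type tumours stood 3.02-fold higher (log2 difference 1.59, SE 0.23, limma adjusted p = 0.00037). Psmb5, the chymotrypsin-like subunit that proteasome inhibitor drugs bind, read 5641, 5353 and 5784 in the normal glands, 8598, 11108 and 10857 in the wild-type tumours and 11798 and 4705 in the PEA3-null tumours by its brightest probe set, on chip B. The wild-type tumours were above all normal glands, by 1.81-fold (log2 difference 0.85, SE 0.26, limma adjusted p = 0.0314), whereas PEA3-null sample 2 was below them. Psmb7, the trypsin-like subunit, read 1122, 980.2 and 1223 in normal glands and 1409, 1392 and 1146 in wild-type tumours, groups that overlap, and did not pass (log2 0.24, limma adjusted p = 0.474). Among the beta subunits that do not cut, Psmb4 rose 1.94-fold, from 4532, 4165 and 3242 to 6948, 8767 and 7466 (limma adjusted p = 0.00398). Psmb1 and Psmb2 rose 1.57-fold and 1.45-fold (limma adjusted p = 0.0311 and 0.0118). A further Psmb1 probe set of chip A, 160875_at, did not pass (log2 0.33, limma adjusted p = 0.216). Psmb3 did not pass, although its groups were apart (log2 0.44, limma adjusted p = 0.0972). Psmb11, the thymus subunit, reached the minimum on 2 of 8 arrays and had a log2 difference of 0.35 (limma adjusted p = 0.723).

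**Figure D3:**
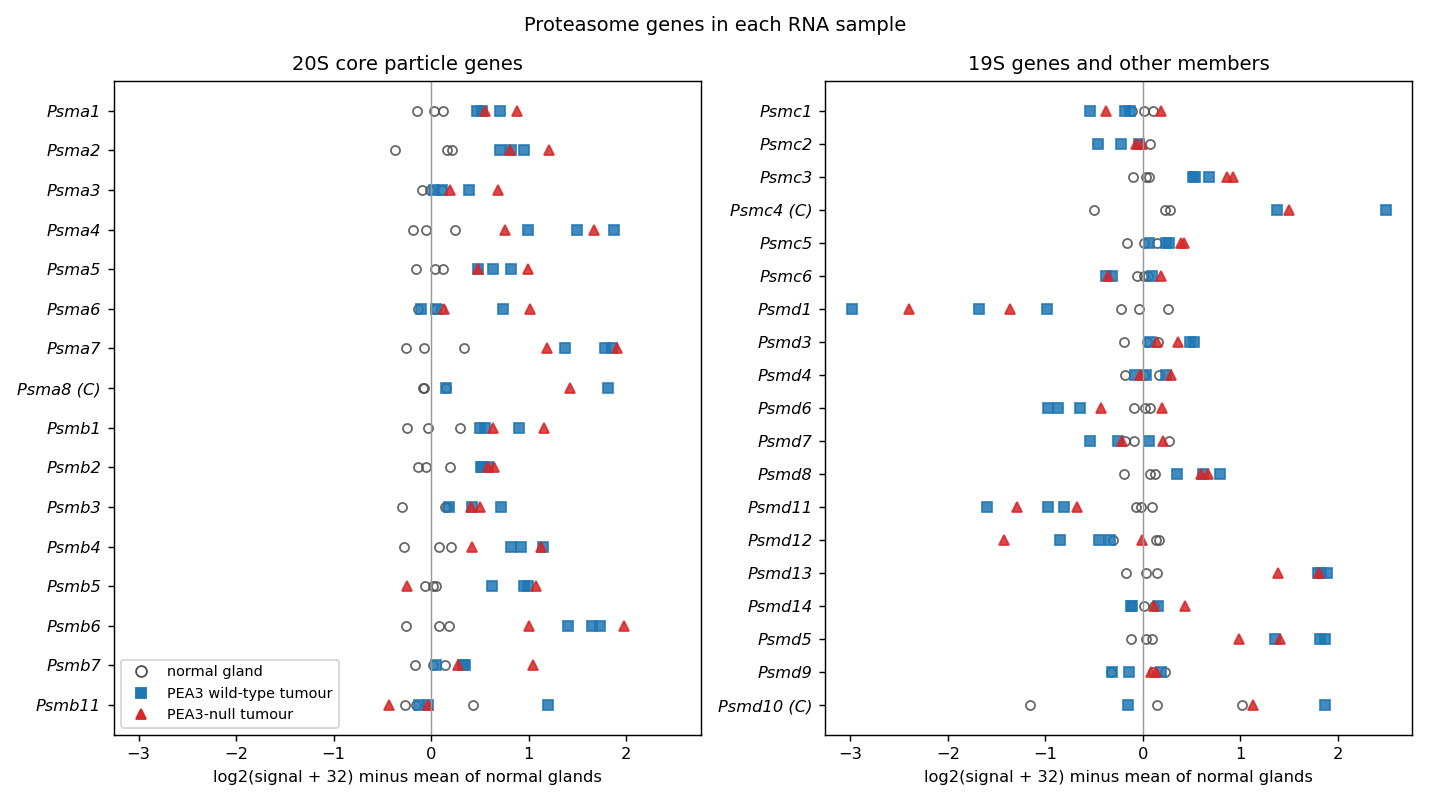
Each of the 35 tested members in each RNA sample, as log2(signal + 32) minus the mean of the normal glands (horizontal axis); (C) marks genes read on chip C, which holds fewer tumour arrays. Psma7, Psmb6, Psmd13 and Psmd5 have all tumour samples to the right of all normal glands, and Psmd1 and Psmd11 have all of them to the left.

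The 6 ATPases form the ring that unfolds the substrate, and 1 of them rose, where 10.5% of all tested probe sets did. Psmc3 read 1500.1, 1336 and 1464 in the normal glands, 2088, 2055 and 2308 in the wild-type tumours and 2741 and 2631 in the PEA3-null tumours. Its tumour samples were all above the normal glands, with a 1.49-fold rise in wild-type tumours (log2 difference 0.57, SE 0.13, limma adjusted p = 0.00791). Psmc4 did not pass: on chip C it read 33.4, 76.4 and 80.4 in the normal glands, 489 and 209 in 2 wild-type tumours and 229 in the PEA3-null sample. All normal values lie under the minimum of 150 units and the tumours above it, so the probe set passed the filter through the tumours alone, and the size of the difference is not given (limma adjusted p = 0.0727). The chip A probe set of Psmc4 did not pass the filter and its groups overlapped, at 101, 165 and 57 in normal glands and 84.1, 73.2 and 42.7 in wild-type tumours. Psmc1, Psmc2 and Psmc6 differed by -0.28, -0.24 and -0.20 on the log2 scale, and Psmc5 by 0.19; the 4 adjusted p-values from limma ran from 0.282 to 0.486.

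Of the 10 tested non-ATPase subunits 2 were higher and 3 lower, where 10.5% and 10.3% of all tested probe sets were. Psmd13, a subunit of the lid, read 579, 502 and 629.8 in the normal glands, 2046, 2092 and 2184 in the wild-type tumours and 2059 and 1531 in the PEA3-null tumours. The rise of 3.56-fold had the lowest adjusted p of all members (log2 difference 1.83, SE 0.16, limma adjusted p = 1.01e-05), and neither genotype overlapped the normal glands. Psmd8, a lid subunit needed to join lid and base, rose 1.5-fold, from 964, 928 and 769.5 to 1134, 1553 and 1369 (limma adjusted p = 0.0283).

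Psmd1, a large scaffold of the base, went the other way and read 2163, 2456 and 3026 in the normal glands, 1263, 763 and 291 in the wild-type tumours and 965 and 453 in the PEA3-null tumours. All 5 tumour samples lay under the lowest normal gland, with a wide spread among them, and the wild-type tumours were 3.69-fold lower (log2 difference -1.88, SE 0.42, limma adjusted p = 0.00738). Psmd11, a lid subunit known to stabilise the assembled proteasome, read 2525, 2618 and 2845 in the normal glands, 855, 1509 and 1336 in the wild-type tumours and 1652 and 1068 in the PEA3-null tumours. Again every tumour sample was under every normal gland, by 2.18-fold in wild-type tumours (log2 difference -1.13, SE 0.22, limma adjusted p = 0.00312). Psmd6, another lid subunit, read 1744, 1680.3 and 1555 in the normal glands, 828, 1050.2 and 895 in the wild-type tumours and 1909 and 1221 in the PEA3-null tumours. Here the wild-type tumours were under all normal glands, by 1.77-fold (log2 difference -0.83, SE 0.18, limma adjusted p = 0.00692), while PEA3-null sample 1 was above them. Psmd12 did not pass, at 621, 635 and 448 in normal glands and 297, 438 and 402 in wild-type tumours (limma adjusted p = 0.312). The ubiquitin receptor gene Psmd4, the deubiquitinase gene Psmd14 and the lid genes Psmd3 and Psmd7 missed the threshold, their log2 differences being 0.06, -0.03, 0.36 and -0.25.

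The assembly chaperone gene Psmd5, whose protein holds ATPase subunits before they meet the core, read 991, 886 and 1039 in the normal glands, 2536, 3502 and 3617 in the wild-type tumours and 2614 and 1955 in the PEA3-null tumours. It was 3.2-fold higher in wild-type tumours with no overlap (log2 difference 1.68, SE 0.18, limma adjusted p = 3.45e-05). Psmd9, a chaperone of another ATPase pair, did not pass (log2 -0.09, limma adjusted p = 0.803). Psmd10, known as the oncoprotein gankyrin, read 129.6, 369 and 696 in normal glands and 294 and 1282 in wild-type tumours on chip C, groups that overlap (log2 0.86, SE 0.75, limma adjusted p = 0.496). Its chip A probe set 103319_at gave the opposite sign, at -0.53 (limma adjusted p = 0.408). It read 368 and 369 in the PEA3-null samples, above all normal glands (183, 238 and 203) and wild-type tumours (224, 57.8 and 167), a log2 difference between genotypes of 1.27 that did not pass (limma adjusted p = 0.316).

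Some calls did not hold with fewer samples. Psma2, Psma4, Psma7, Psmb4, Psmb6, Psmd13 and Psmd5 stayed past the threshold in each of the 21 alternatives of this comparison. These alternatives did not put every further probe set of a gene in place of its main one. With 1 RNA sample left out, the calls of Psma5, Psmb1, Psmb2, Psmb5 and Psmd8 were lost at least once, with log2 differences between 0.47 and 0.88 that stayed positive in those fits. Without normal gland 2 all 5 missed the threshold (limma adjusted p 0.0543 to 0.130), and without normal gland 3 all but Psmb2 did (0.0772 to 0.110). Without wild-type tumour 2 Psma5, Psmb1, Psmb5 and Psmd8 did (0.0578 to 0.113), without wild-type tumour 3 Psmb1, Psmb5 and Psmd8 did (0.0755 to 0.121), and without normal gland 1 Psmb5 did (0.0824). With both normal glands of the aborted wash left out, a fit added after seeing the data, 1 normal sample remained. The members' median was then 0.31, beside 0.0355 for all tested probe sets. Fewer members, and fewer of all tested probe sets, passed than in the main fit. The log2 differences of the 3 lower genes in that fit were -2.14 for Psmd1, -1.22 for Psmd11 and -0.74 for Psmd6, and they did not pass.

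Genes with several probe sets did not always read alike. Of 21 further tested probe sets of 13 genes, 15 had the sign of the main one. Some of these 21 passed the filter through tumour arrays alone, which favours a positive sign. For Psmb5 the chip A probe set 101558_s_at read 1019, 981 and 971 in normal glands, 2846, 2786 and 3153 in wild-type tumours and 3003 and 1989 in PEA3-null tumours, or 1.53 on the log2 scale for wild-type tumours (limma adjusted p = 3.88e-05) with no overlap, whereas 160559_at gave -0.23 (limma adjusted p = 0.773). For Psmd11 the fall was not seen by 160305_at, which gave -0.14 (limma adjusted p = 0.633), while 160304_r_at gave -1.13 (limma adjusted p = 0.0775). For Psmd5, 105195_at of chip B read 118, 82.5 and 83.6 in normal glands and 352, 438 and 307 in wild-type tumours. It passed the filter through tumour arrays alone, so it does not back the rise, and its size is not given. Psmd5 was not higher by 168711_at of chip C (-0.55, limma adjusted p = 0.656). Psmc3 was higher by 93734_i_at as well (0.57, limma adjusted p = 0.0258), and not by 132225_at of chip C (0.03, limma adjusted p = 0.974). Psma4 was not higher by 170225_f_at of chip C (-0.14, limma adjusted p = 0.926). Psmb4 did not pass by the much dimmer 98556_at (limma adjusted p = 0.651). The main probe sets of 9 members carry a suffix by which the maker marks probes that match several transcripts or follow looser design rules, those of Psma3, Psmb4, Psmb5, Psmb7, Psmc3 and Psmd12 among them, and signal from related transcripts cannot be told apart there.

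The second comparison sets PEA3-null tumours against the same normal glands, so it shares its controls with the first. Of 32 tested members 13 rose, 2 fell and 17 did not pass, against 24.6% of the 19275 tested probe sets of chips A and B (12.2% higher and 12.4% lower). The members' median was 0.45, beside 0.084 for all tested probe sets. Tumours were above the normal glands without overlap for 19 members (28.8% of all tested) and under them for 2 (24.6%). In the 20S core 9 of 15 rose and 0 fell, and in the 19S particle 3 of 15 rose and 2 fell.

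Psmd13 rose 3.01-fold in PEA3-null tumours (log2 difference 1.59, SE 0.18, limma adjusted p = 7.79e-05), Psma7 2.92-fold (limma adjusted p = 0.000678) and Psmb6 2.8-fold (limma adjusted p = 0.00129). Psmd5 rose 2.29-fold and Psmc3 1.86-fold (limma adjusted p = 0.000961 and 0.000905). Psmd1 fell by 1.88 on the log2 scale (limma adjusted p = 0.0128) and Psmd11 by 0.98 (limma adjusted p = 0.0125). The Psmd11 probe set 160305_at read the other way, at 0.11 (limma adjusted p = 0.718), with both PEA3-null samples above all normal glands. Psmd5 did not pass by 105195_at of chip B, whose size is again not given (limma adjusted p = 0.595). Psma1 passed with a log2 difference of 0.71 (limma adjusted p = 0.0277); with the adjustment over chips A and B used here, it passed in wild-type tumours as well (limma adjusted p = 0.0419). The main probe sets of Psmb5 and Psmd6 missed it here, at log2 differences of 0.41 and -0.12 (limma adjusted p = 0.331 and 0.729), but Psmb5 passed by its chip A probe set 101558_s_at (1.28, limma adjusted p = 0.000366), with no overlap. Psmb7 was at 0.66 with an adjusted p of 0.0547 from limma.

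Calls also changed here with the samples in the fit. Without PEA3-null sample 1, Psma1, Psma4, Psma5, Psmb1, Psmb4 and Psmd8 missed the threshold (limma adjusted p 0.0679 to 0.198), and Psmd12 passed it as lower (log2 -1.42, limma adjusted p = 0.0139). Without PEA3-null sample 2, Psmd1, Psmd11 and Psmd8 missed it (0.0904 to 0.117), and Psma3, Psma6, Psmb5 and Psmb7 passed it as higher (0.00164 to 0.0261). Leaving out normal gland 3 lost Psma1, Psma5, Psmb4 and Psmd8 (0.0558 to 0.0965), leaving out normal gland 2 lost Psma1 and Psmd8 (0.0534 and 0.0608), and leaving out normal gland 1 lost Psma1 (0.0922). Without normal glands 1 and 2, which leaves 1 normal sample, the members' median was 0.52, beside 0.082 for all tested probe sets. Fewer members, and fewer of all tested probe sets, passed in that fit. Psmd1 and Psmd11, at -2.14 and -1.08, did not pass in it.

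The third comparison asks how tumours labelled PEA3-null differ from wild-type tumours in these genes. No member differed past the threshold: limma called 0 of 32, where it called 0.192% of all 19275 tested probe sets (0.119% higher, 0.0726% lower). At an unadjusted limma p under 0.05 there were 2 of 32 members, Psmd6 and Psmd5, beside 2031 of all 19275 tested probe sets. The members' median log2 difference was 0.11, beside 0.0074 for all tested probe sets. Among the cutting subunits the 95% intervals of the difference were -1.06 to 0.18 for Psmb5, -0.67 to 0.46 for Psmb6 and -0.08 to 0.92 for Psmb7. For Psmd13 the interval was -0.64 to 0.16, for Psma7 -0.65 to 0.41 and for Psmd1 -1.03 to 1.04. Differences of the size seen between tumour and normal gland thus lie outside the intervals for Psmd13, Psma7, Psmb6 and Psmd1. The interval of Psmb7 holds its wild-type difference from normal gland (0.24), and that of Psmb5 holds one as large (0.85) as a fall. The intervals are not adjusted for the number of tests, and differences within them remain compatible with these data.

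Psmd6 had the highest difference, with both PEA3-null samples (1909 and 1221) above all wild-type tumours (828, 1050.2 and 895). Its log2 difference was 0.71 with an interval of 0.26 to 1.16 (limma adjusted p = 0.247). Psmc3 and Psmc5 also had both PEA3-null samples above all wild-type tumours (log2 0.32 and 0.21, limma adjusted p = 0.478 and 0.704). So 3 of 32 members lay apart as higher and 0 as lower, against 11.3% and 11.6% of all tested probe sets. Psmd5 had a log2 difference of -0.49 with overlapping samples (interval -0.92 to -0.05, limma adjusted p = 0.401). Its chip B probe set 105195_at had both PEA3-null samples under all wild-type tumours (limma adjusted p = 0.433). That probe set passed the filter mainly through the wild-type tumours, so the size of its difference is not given. The 5 tumour arrays of chip A shared a scan day, and within them limma again called 0 members, with a median of 0.13. On chip B, which reads Psmb5 and Psmb11, the genotypes shared neither a scan day nor a chip lot, so scan and genotype cannot be told apart there.

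**Figure D4:**
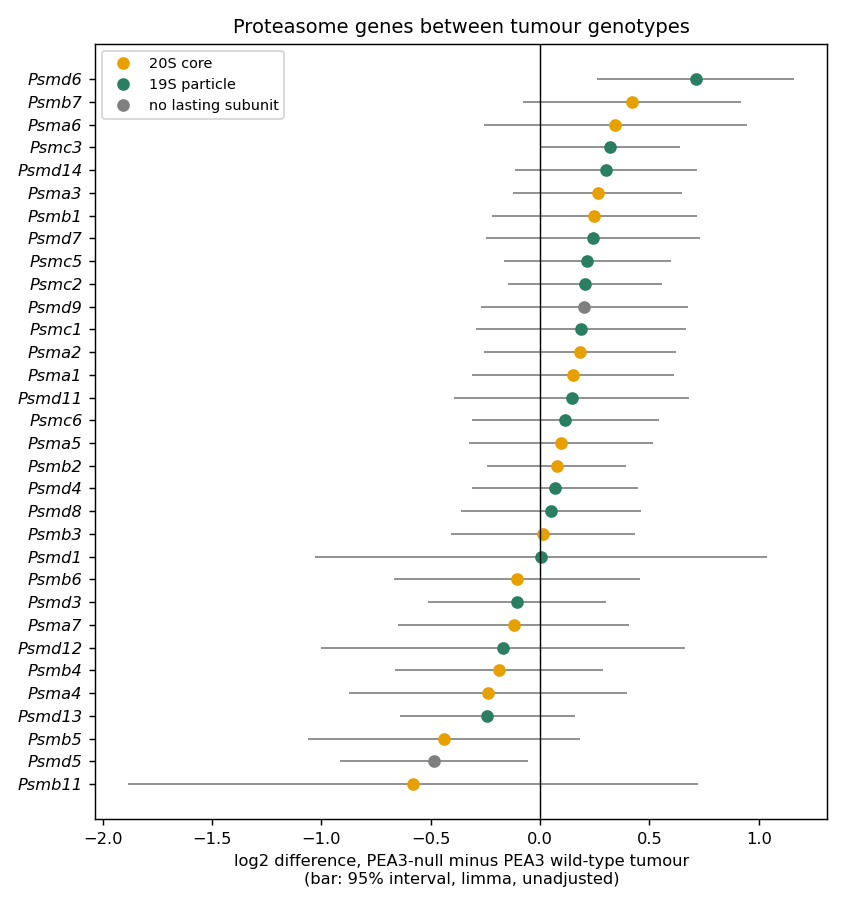
Log2 difference between PEA3-null (n = 2) and PEA3 wild-type tumours (n = 3) for the 32 members tested on chips A and B, with 95% intervals from limma that are not adjusted for the number of tests. The intervals of Psmd6 and Psmd5 exclude 0, and neither gene passes after adjustment.

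The PEA3-null samples differed from each other across the family. Sample 1 read higher than sample 2 for 29 of 32 members (90.6%), with a median log2 difference of 0.46, whereas it did so for 48.2% of all tested probe sets, with a median of -0.035. Psma4 read 4058 and 2136, Psma6 7155 and 3872, Psmb6 3812 and 1928, Psmb5 11798 and 4705 and Psmd12 558 and 189.5 in samples 1 and 2. Psmb5 was read on chip B, where the 2 PEA3-null arrays were scanned on different days. Its chip A probe sets read 3003 and 1989 (101558_s_at) and, the other way, 145 and 622 (160559_at). Of the 32 main probe sets, only those of Psmc5, Psmd3 and Psmd8 were higher in sample 2. Against the mean of the wild-type tumours, sample 1 was higher for 28 of 32 members (median 0.33) and sample 2 for 11 (median -0.061). The sign of the members' median between genotypes therefore changed with the sample left out: it was -0.061 without sample 1 and 0.33 without sample 2. Without sample 1, the Psmb5 difference by its chip B probe set was -1.10 on the log2 scale. In that fit the lone PEA3-null sample takes its spread from the remaining arrays. The genotypes differ in scan day and lot on chip B, and the chip A probe set 101558_s_at differed by -0.26 between them with both samples in the fit. Each group of 2 allows no test of 1 sample against the other.

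The subunits that interferon induces were left out of the family and are given for comparison. Psmb8, which replaces Psmb5 in the immunoproteasome, read 5132, 3994 and 5144 in the normal glands, 3919, 3507 and 4485 in the wild-type tumours and 8799.7 and 8103 in the PEA3-null tumours. Of the subunits tested here it was the 1 past the threshold between the genotypes (log2 difference 1.09, SE 0.16, limma adjusted p = 0.0342), with the PEA3-null samples above all wild-type tumours. Psmb9, which replaces Psmb6, rose in both tumour groups over the normal glands (log2 0.80 and 1.27, limma adjusted p = 0.0162 and 0.0018). Psmb10, which replaces Psmb7, fell by 0.71 in wild-type tumours (limma adjusted p = 0.0114) and differed by -0.16 in PEA3-null tumours (limma adjusted p = 0.592). Whether the immunoproteasome and constitutive genes differ in their changes was not tested.

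Partners of the proteasome were read from lists of related genes. For the counts in this and the following lists, the shares over all tested probe sets are the background. They were 10.5% higher and 10.3% lower in wild-type tumours, and 12.2% and 12.4% in PEA3-null tumours. Of 4 measured activators and inhibitors 0 rose and 1 fell in wild-type tumours: Psme1, a subunit of the cap that interferon induces, at -0.74 (limma adjusted p = 0.00256), with a difference between genotypes of 0.84 (limma adjusted p = 0.0732). Psme4, Psme3 and the inhibitor gene Psmf1 did not pass, at -1.58, -0.42 and -0.04. Of 5 chaperones that build the 20S core 0 passed in wild-type tumours (Psmg3 0.40, Psmg2 0.16, Pomp 0.14, Psmg4 0.08; list median 0.14). In PEA3-null tumours 1 of them rose: Pomp, which matures the beta ring, read 3055, 2206 and 1189.7 in the normal glands, 2273, 2262 and 2119.7 in the wild-type tumours and 4554 and 4071 in the PEA3-null tumours, a 2.13-fold rise over the normal glands (limma adjusted p = 0.018). Between genotypes Pomp differed by 0.95 without passing (limma adjusted p = 0.274).

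Of 9 measured receptors, deubiquitinases and shuttles bound to the proteasome 0 rose and 2 fell in wild-type tumours. These were the shuttle genes Ubqln4 (-1.10, limma adjusted p = 0.0223) and Rad23b (-0.86, limma adjusted p = 0.0315), whose products carry ubiquitin-tagged proteins to the 19S particle. Ubqln2 and Uchl5 did not pass, at 0.99 and -0.61. In PEA3-null tumours Rad23b fell (-1.17, limma adjusted p = 0.0103) and Txnl1, a thioredoxin of the 19S particle, rose (0.59, limma adjusted p = 0.0442). Of the ubiquitin genes and activating enzymes 1 of 6 had a probe set of its own symbol, Uba6, which did not pass (limma adjusted p = 0.213). Of 6 measured genes of the unfoldase Vcp and its cofactors 1 rose and 1 fell in wild-type tumours: Ubxn1 (0.47, limma adjusted p = 0.0287) and Vcp itself (-0.61, limma adjusted p = 0.0256). Nploc4 and Nsfl1c did not pass there, at -0.49 and 0.47, and in PEA3-null tumours Ubxn1 and Nsfl1c rose (limma adjusted p = 0.0181 and 0.0261). The largest difference between genotypes in this list was that of Faf1, at -0.58 (limma adjusted p = 0.66).

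The regulators NRF1 and NRF2 control proteasome genes, and 0 of 6 genes of their list rose while 2 fell in each tumour group. Nfe2l2, which encodes NRF2, read 1398, 1374 and 1297 in the normal glands, 675, 527 and 677 in the wild-type tumours and 655 and 723 in the PEA3-null tumours. All tumour samples were under the normal glands (log2 -1.08 and -0.95, limma adjusted p = 0.000641 and 0.00332). Ngly1, the enzyme that strips sugars from NRF1 on its way to activity, fell as well (-0.67 and -0.82, limma adjusted p = 0.0402 and 0.0238). Mafk and Maff, partners of both factors, did not pass in wild-type tumours, at -0.30 and 0.25. Nfe2l1, the gene of NRF1 and named after its values were seen, did not pass either (-0.25, limma adjusted p = 0.43).

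Other assemblies were set beside the proteasome. Over all tested probe sets 10.5% were higher in wild-type and 12.2% in PEA3-null tumours, and lists of this size are small. In the COP9 signalosome, a complex built like the 19S lid that removes Nedd8 from ubiquitin ligases, 3 of 9 genes rose and 0 fell in each tumour group, with medians of 0.39 and 0.40. Cops5, its catalytic subunit, read 253, 296 and 257 in the normal glands, 918, 872 and 595 in the wild-type tumours and 958 and 1100.4 in the PEA3-null tumours, a 2.71-fold rise in wild-type tumours without overlap (log2 difference 1.44, SE 0.22, limma adjusted p = 0.000491). Cops6 and Cops3 rose by 0.95 and 0.89 on the log2 scale (limma adjusted p = 0.000626 and 0.00607), and Cops7b did not pass (0.44). In the chaperonin TRiC, which folds actin and tubulin, 3 of 8 genes rose and 1 fell in wild-type tumours, with a median of -0.01. Cct3, Cct5 and Cct7 rose by 1.41, 1.17 and 0.96 (limma adjusted p = 0.000548, 0.000878 and 0.000236), and Cct8 fell by 0.97 (limma adjusted p = 0.0417). In PEA3-null tumours 3 TRiC genes rose and 0 fell, with a median of 0.22. Between the genotypes 0 genes of the partner, regulator, signalosome and chaperonin lists passed the threshold, where 0.192% of all tested probe sets did.

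**Figure D5:**
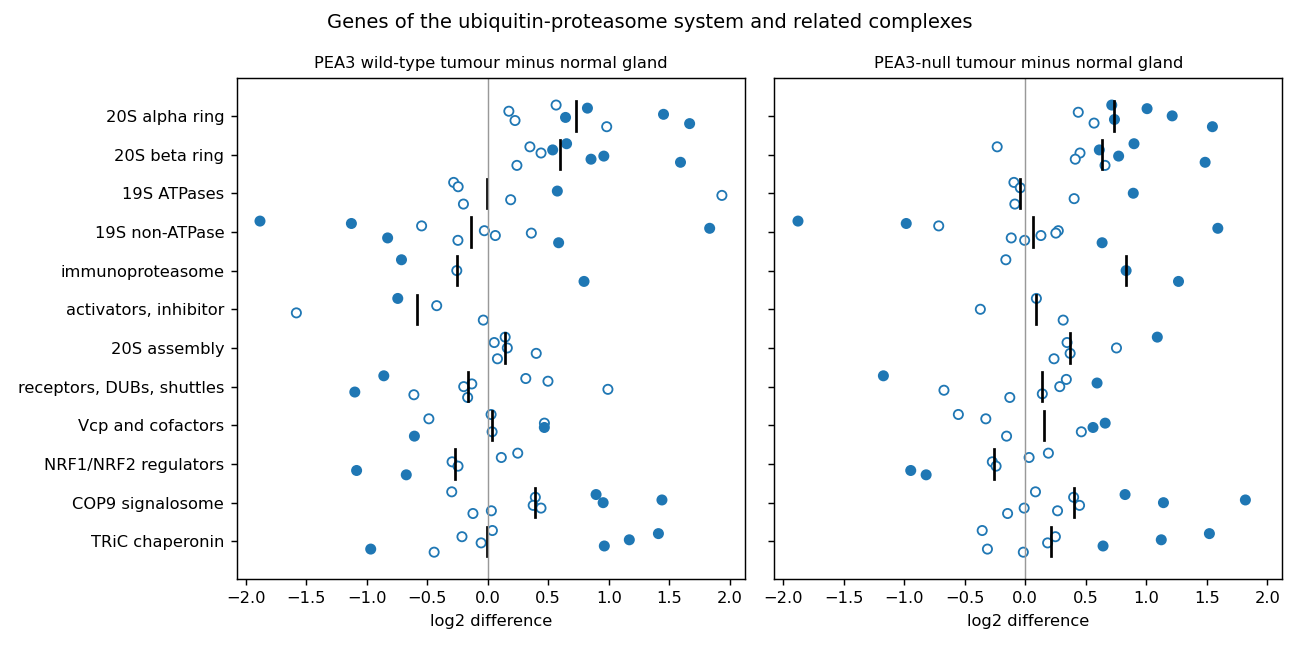
Log2 differences from normal gland (horizontal axis) in wild-type and PEA3-null tumours for each tested gene of 12 lists. Filled points passed the limma threshold, black bars are list medians, and both panels share the same normal glands. The medians of the 20S alpha and beta rings (0.73 and 0.59 in wild-type tumours) lie to the right of those of the 19S ATPases and non-ATPase subunits (-0.01 and -0.14). In the wild-type panel, Psma8 and Psmc4 passed the filter through tumour arrays alone.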

How the data were processed

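Total RNA was read on 22 arrays of 3 chip types. The deposited values are linear probe set intensities made by the authors with MAS5, per the submitters' processing notes, with no version or settings given in the sources used here. Every deposited array had a 2% trimmed mean near 1500.3 to 1501.1. The deposited instrument files hold text settings (other, no measurement), from which the scan, lot and wash records were read, per the file headers.

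Arrays were rescaled to a 2% trimmed mean of 500 without the 198 control probe sets, 32 was added and log2 was taken, so folds understate changes of dim probe sets. Probe sets with at least 150 units on 2 or more arrays of a chip type were fitted with limma 3.58.1 in R 4.3.3 (lmFit, eBayes with trend, 3 groups per chip type), two-sided. Adjustment (Benjamini-Hochberg) covered chips A, B and C for wild-type tumours against normal glands, and chips A and B for PEA3-null comparisons; the threshold was 0.05. The fit was run on simulated arrays with independent noise, which checks the code and not the p-values of these data. The number of arrays limits the precision.

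All members are named. From each other list the text names up to 4 genes with the largest difference between wild-type tumour and normal gland, the largest between genotypes where it is of use, and the immunoproteasome subunits. Members, lists and motifs were chosen with earlier results of these data known. Symbols and promoters came from the platform annotation and RefSeq (GRCm38.p6). Same-numbered samples did not deviate together (correlations -0.108 to 0.066), so no pairing was used. Alternatives concerned scaling, added constant, filter, variance model, chip types, probe set choice, arrays in the fit, scan day, replicate block and each sample left out.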

Additional observations from a re-analysis of the deposited data

How the results depend on the processing

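Counts of members past the threshold stayed within 1.5 times of those reported, and medians within 1 SD of the sample medians, in 124 of 134 recomputed list values. On chip A alone the median was 0.30 in wild-type and 0.59 in PEA3-null tumours. Without normal glands 1 and 2, an alternative added after seeing the data that leaves 1 normal sample, the wild-type median was 0.31. The median of all tested probe sets was then 0.0355. Fewer members, and fewer of all tested probe sets, passed in each comparison with normal glands. With 1 RNA sample left out at a time, the median was 0.38 to 0.55 in wild-type and 0.31 to 0.62 in PEA3-null tumours. In wild-type tumours 11 to 17 members passed. The 11 came without normal gland 2, where 4144 of all 27667 tested probe sets passed, against 5876 of 28242 in the main fit. In fits that kept both PEA3-null samples, 11 to 15 members passed in PEA3-null tumours. The 11 came without normal gland 3, where 3549 of all 19042 passed, against 4750 of 19275 in the main fit. Between the genotypes the median ran from -0.061 to 0.33, with the sign turned without PEA3-null replicate 1. In fits that kept both PEA3-null samples 0 members passed, beside 3 to 18 of all tested probe sets. With the titles' numbers as a replicate block, 15, 12 and 0 members passed in the 3 comparisons. Over all tested probe sets 5190 of 28242, 3863 of 19275 and 3 of 19275 then passed. No called member changed sign in any alternative scored gene by gene. These did not put each further probe set in place of the main one. Some further probe sets had the opposite sign, as for Psma4, Psmb5 and Psmd5 in wild-type and Psmd11 in PEA3-null tumours. Of the calls, 7 of 16 in wild-type and 6 of 15 in PEA3-null tumours held in each alternative. Without a variance trend 5 calls were lost in each, where 5100 of 28242 and 4158 of 19275 tested probe sets passed. With 2 or 3 arrays a group, small differences are not resolved, the brightest probe set stands for a gene, and MAS5 was not varied. The causes of these shifts were not tested.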
